A study of Mus musculus with 15 samples.

Results

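Cytosolic ribosomal protein genes are the subject here: the genes for the proteins of the large and small subunits of the ribosome that works in the cytosol. They were taken by symbol (Rpl or Rps followed by a number, with Rplp0, Rplp1, Rplp2, Rpsa, Rps4x and Rpl13a), leaving out symbols marked as pseudogenes and the kinases named Rps6k, with a mean of at least 10 TPM over the 15 libraries. Of 51912 gene rows, 89 had such a symbol and 82 reached that mean, 48 of them for the large subunit and 34 for the small one. All 82 passed the count filter of the tests. Rps3a2 (25.7 TPM), Rpl27 (52.5 TPM) and Rpl7l1 (57.1 TPM) lay just inside the limit. Rps3a3 (7.45 TPM), Rpl39l (6.62 TPM), Rpl6l (3.57 TPM), Rps4l (2.02 TPM), Rpl32l (1.72 TPM) and Rpl3l (0.08 TPM) lay outside it, and Rpl10l was listed at 0 in every library.

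All libraries came from wild-type mouse B cells grown over a layer of 40LB feeder cells. The culture lasted 6 days, IL-4 was present at 100 ng/ml, and the labels give no other treatment. A bulk, unsorted sample was taken on day 6 (D6). Cells lifted from the feeder layer were held for another 2 days in plain medium and sorted on day 8 into IgE iGC and IgG1 iGC, subsets that the labels name only by this abbreviation, and IgE and IgG1 plasma cells (PC), and each of the 5 groups has 3 biological replicates. The D6 group therefore differs from the others in day, in contact with the feeder layer and in sorting, which cannot be told apart. The labels call the replicates independent and name no animals, so p-values measure the spread between these samples.

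Ribosomal proteins are needed in like amounts, and cells assemble them on ribosomal RNA, largely in the nucleolus. Most of these mRNAs belong to the TOP class, whose transcripts begin with a C followed by a run of pyrimidines and whose translation is under the control of mTORC1 through LARP1. Plasma cells spend much of their translation on antibody, which ribosomes at the endoplasmic reticulum make. A few ribosomal proteins have paralogues, such as Rpl22l1 for Rpl22 and Rps27l for Rps27, a gene known as a p53 target.

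The bases around the annotated transcript start are shown for the members that the results turn on, because the start of a TOP mRNA is its defining feature. RefSeq (GRCm38.p6) gave a promoter for 60 of the 82 members. Each line holds 30 bases of the gene's own strand, 12 before the annotated start and 18 from it on. Capitals mark the longest run of C and T that begins with C within 10 bases of the start, where it has at least 5 bases. A marked run can lie before the start and so outside the annotated transcript. That of Rps27l, which begins 10 bases before the start and has 7 bases, does so. Where several starts are listed for a gene, the start with the longest run is shown.

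Rpl13a (chr7:45128728-45128757, minus strand): accctgcgacaagaCCTCCTCCTTTCCCag
Rpl15 (chr14:18270969-18270998, minus strand): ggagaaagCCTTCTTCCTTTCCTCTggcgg
Rpl27a (chr7:109519183-109519212, plus strand): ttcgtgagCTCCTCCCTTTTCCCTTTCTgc
Rps27 (chr3:90213631-90213660, minus strand): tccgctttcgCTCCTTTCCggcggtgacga
Rps24 (chr14:24490666-24490695, plus strand): gcgctggggtCCTTCCTTgcgcgttgatat
Rplp2 (chr7:141447639-141447668, plus strand): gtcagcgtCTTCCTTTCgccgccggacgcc
Rps19 (chr7:24884901-24884930, plus strand): ggagcggggtgtggagggCTCTCCCacgcg
Rps2 (chr17:24720051-24720080, plus strand): cagtcgagatctcgcgCTTCTTggagcact
Rpl22l1 (chr3:28805496-28805525, plus strand): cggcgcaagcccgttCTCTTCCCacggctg
Rps27l (chr9:66946074-66946103, plus strand): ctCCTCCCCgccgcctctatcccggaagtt
Rpl13 (chr8:123102338-123102367, plus strand): cctttcgcctgattttgattggcgtttgag
Rpl10 (chrX:74270804-74270833, plus strand): gttacagtggaagataggccgcctatataa
Rpl41 (chr10:128549151-128549180, minus strand): acgggccggctcggaagtgacgacaccgag
Rps3a1 (chr3:86142651-86142680, minus strand): aagccggaagggcgaaagagcaagggtcac

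A run of at least 7 bases stood within 10 bases of the start in 29 of the 60 members (48.3%), against 14.1% of 26965 other genes. Runs of at least 5 bases were found in 36 of the 60 members and in 34.3% of the other genes. With only the first start listed for each gene, 41.7% of the members and 12.1% of the other genes had a run of at least 7 bases. Rpl27a, Rpl15 and Rpl13a show long runs, while Rpl13, Rpl10, Rpl41 and Rps3a1 have none of 5 bases that begins within 10 bases of the start shown. These counts depend on the annotated start, and a run elsewhere is not seen. They include runs that lie before the start, as in Rps27l, which are not the start of the annotated transcript.

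Totals of the deposited expected counts ran from 17.7 M (IgE iGC replicate 3) to 54.1 M, and replicates of a group correlated at a Pearson r of 0.987 to 0.998 across genes. The sorted groups carried the markers of their labels: 8 plasma cell markers summed to between 8569 and 14026 TPM in the PC libraries and to at most 1323 TPM in the iGC libraries, and 8 B cell markers to at most 3311 TPM in PC and at least 7451 TPM in iGC libraries. Transcripts of 10 fibroblast genes summed to between 107 and 178 TPM at D6 and to at most 49.3 TPM in the sorted libraries. T cell and myeloid lists stayed at or under 10.9 and 4.01 TPM, with C1qa at 0 in every library. Among the IgG1 PC libraries replicate 1 stood apart: it had the highest scaled level of the group for 80 of the 82 members, and it held 41.1% of its TPM in immunoglobulin genes against 33.4% and 34.0% in replicates 2 and 3. Among the IgE iGC libraries, replicate 1 was highest for 71 members.

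As a whole, the 82 genes were among the most abundant of the cell, and their combined level differed between stages. They made up 18.2%, 18.1% and 17.9% of all TPM in the D6 libraries and 20.6%, 20.1% and 19.3% in IgE iGC. In IgG1 iGC they made up 19.7%, 20.4% and 20.4%. The share was 10.2%, 10.3% and 9.61% in IgE PC, the lowest of the series, and 13.2%, 13.3% and 13.8% in IgG1 PC. Both plasma cell groups lay below every other library, and they did not overlap each other. Each pair of groups reached p = 0.1 in a two-sided exact permutation test, the smallest that 3 against 3 libraries can give (0.111 after Benjamini-Hochberg adjustment over the 10 pairs), except IgE iGC and IgG1 iGC (p = 0.7).

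Immunoglobulin transcripts took 40.9% ± 1.42 of TPM in IgE PC and 36.2% ± 4.27 in IgG1 PC, against 3.01% to 3.86% in the group means of the other cells (SD, n = 3 each). With immunoglobulin genes and Jchain left out of the total, the ribosomal protein share was 18.7% ± 0.152 at D6, 20.8% ± 0.714 in IgE iGC and 20.8% ± 0.381 in IgG1 iGC (SD, n = 3 each). On that scale IgE PC stayed the lowest at 16.9%, 17.2% and 16.7%, and every IgE PC library lay below every library of the other groups. IgG1 PC held 22.4%, 19.99% and 20.9% and overlapped with IgG1 iGC, with a difference of 0.291 percentage points (exact permutation p = 0.9, two-sided). The difference between IgE PC and IgE iGC was -3.86 points and that between IgG1 PC and IgE PC was 4.14 points, each with an exact permutation p of 0.1, the smallest possible (0.143 adjusted over the 10 pairs). As a share of expected counts, where long genes weigh more, the means were 7.02%, 8.26%, 4.95%, 8.30% and 7.13% in the order D6, iGC and PC of IgE, then iGC and PC of IgG1. In bulk samples fewer cells of a type and less RNA per cell cannot be told apart.

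**Figure D1:**
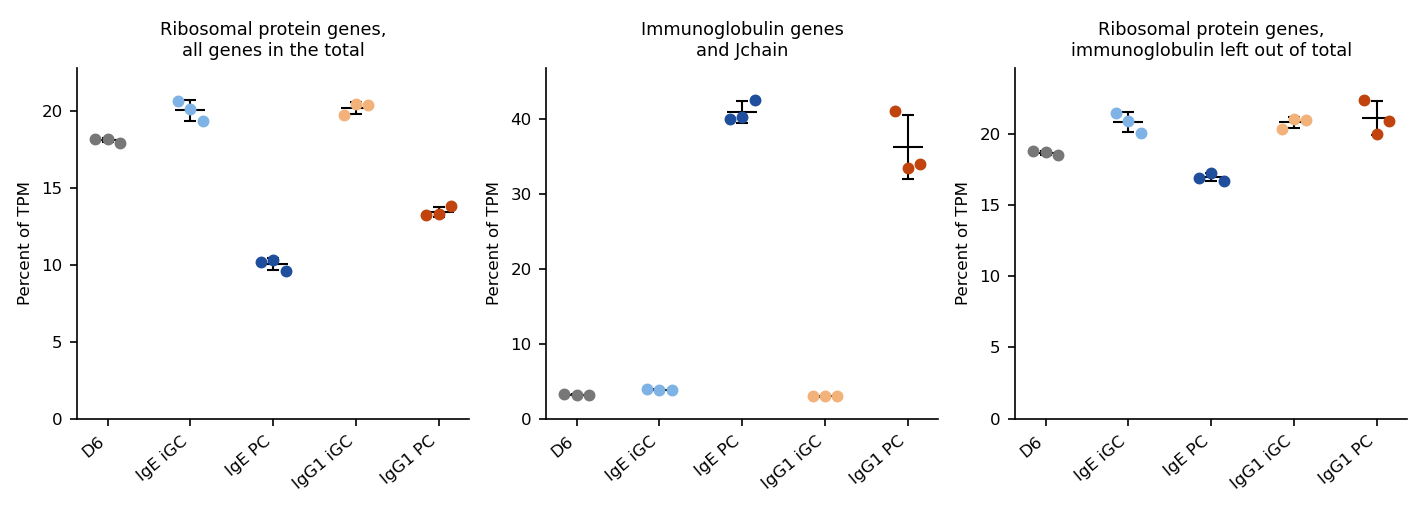
Percent of TPM per library in the 82 cytosolic ribosomal protein genes (left), in immunoglobulin genes and Jchain (middle), and in the ribosomal protein genes with immunoglobulin genes left out of the total (right); points are libraries, bars the mean and SD of 3 replicates. Plasma cell libraries sit at 9.61 to 13.8 percent on the left, and on the right only IgE PC, at 16.7 to 17.2 percent, lies below the other groups.

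Levels per length differed widely between members. By mean TPM, 65 members lay between 1000 and 5000, 10 between 100 and 1000 and 5 under 100. Rpl13a, a large subunit protein, was highest with a mean of 5982 TPM, followed by Rps24, the only other member above 5000 TPM. Rps3a2 was lowest at 25.7 TPM, and it is annotated, like Rps12l1, as a processed pseudogene. The group with the highest mean TPM was IgG1 iGC for 34 members, IgE iGC for 27, D6 for 20 and IgG1 PC for 1, while IgE PC was lowest for 79. These ranks are of TPM, which the large immunoglobulin share lowers in both plasma cell groups. On the TMM scale used below, 29 members had a positive change in IgE PC against D6 and 53 a negative one. From IgG1 iGC to IgG1 PC 40 changes were positive and 42 negative. The large subunit members together had 1.17 to 1.20 times the TPM of the small subunit members in the group means.

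Low levels of some members depend on how reads were divided. For 63 members the expected counts were fractional in all 15 libraries, and 78 have at least 1 pseudogene row in the table by name or sequence. Rpl5 held 2.73% of the reads of itself and its pseudogenes, Rpl27 3.86% and Rpl12 4.06%, and 11 members held under 50%. Values of these 11 members alone are therefore uncertain. Fau, which also encodes a ribosomal protein as part of a fusion, lies outside the naming rule.

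Each member was then compared on one scale for all genes (edgeR's quasi-likelihood test on TMM-scaled counts; a gene was called at a Benjamini-Hochberg adjusted p under 0.05). TMM places the median of all genes near 0, so a change here is relative to most other genes and not to the total with its immunoglobulin transcripts. The unit per library is CPM, a count relative to the TMM-adjusted library total, which compares a gene between libraries and not genes with each other.

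**Figure D2:**
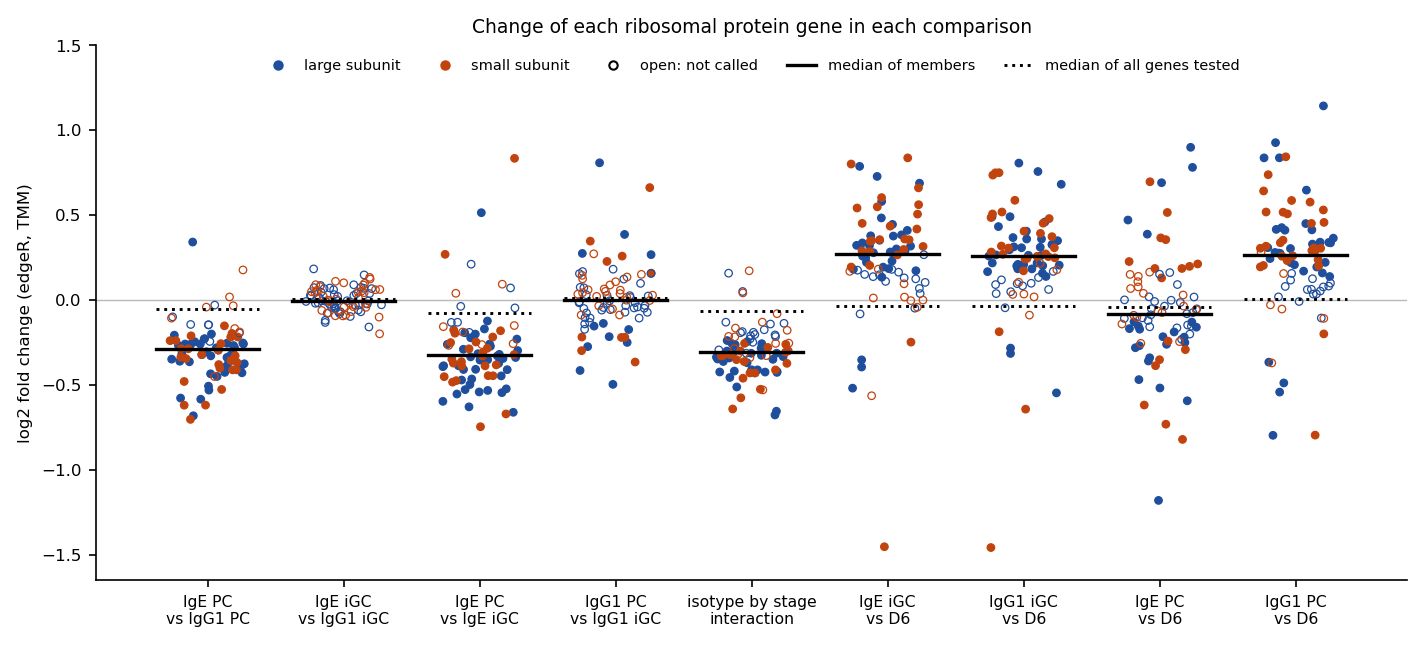
Log2 fold change of each of the 82 members in 9 comparisons (edgeR, TMM); blue points are large and orange points small subunit members, filled where called, with solid lines at the median of the members and dotted lines at the median of all 15692 genes tested. The members lie below 0 in IgE PC against IgG1 PC (median -0.29) and in IgE PC against IgE iGC (median -0.33), around 0 in IgG1 PC against IgG1 iGC, and above 0 in both iGC groups against D6.

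Between plasma cells of the isotypes, ribosomal protein mRNAs were lower in IgE PC across both subunits. Of the 82 members, 66 were lower and 1 was higher, against 30.7% of all genes called lower and 27.4% called higher (58.1% in all). The median of the members was -0.29 and that of all genes -0.05. For the large subunit 40 of 48 members fell, and for the small subunit 26 of 34. Without the 11 members under 50% own reads and the pseudogene rows Rps12l1 and Rps3a2, 56 of 69 were lower and the median was -0.29. Without IgG1 PC replicate 1, 55 were lower and 2 higher, with a median of -0.21. Fibroblast transcripts also differed between these groups, at 5.09 to 9.03 TPM in IgE PC and 16.3 to 49.3 TPM in IgG1 PC, and 8 of 9 tested were lower in IgE PC; their part in the result was not tested.

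Rps2 (ENSMUSG00000044533, chromosome 17, 24718116 to 24721929), a small subunit protein at the mRNA entry channel, showed the largest fall. It had 746, 769 and 729 CPM in IgE PC and 1293, 1117 and 1243 CPM in IgG1 PC. The groups stood well apart, with a log2 fold change of -0.70 (SE 0.06; edgeR adjusted p = 2.81e-07). Rpl13, a large subunit protein, had 581, 645 and 621 CPM in IgE PC and 1186, 857 and 921 CPM in IgG1 PC. Its change was -0.68 (SE 0.11; edgeR adjusted p = 5.87e-05), and replicate 1 of IgG1 PC was again the highest. Rps19, whose human counterpart is the gene most often mutated in Diamond-Blackfan anaemia, had 571, 602 and 569 CPM against 1004, 784 and 886 CPM. Every IgE PC library was below every IgG1 PC library, at -0.62 (SE 0.08; edgeR adjusted p = 9.54e-06). Rps13 (-0.62) and Rpl15 (-0.58), of the small and the large subunit, came next, and Rps13 held 35.9% of the reads of itself and its pseudogenes. With pseudogene reads added, Rpl13 had -0.51, Rps13 -0.45 and Rpl15 -0.45, while Rps2 had -0.74 and Rps19 -0.62.

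Rpl22l1 (ENSMUSG00000039221, chromosome 3, 28805436 to 28807424), the paralogue of Rpl22, was the single member that rose. It had 109, 105 and 112 CPM in IgE PC and 83.5, 97.0 and 76.4 CPM in IgG1 PC, with no overlap. The change was 0.34 (SE 0.10; edgeR adjusted p = 0.0116). Rpl22 itself went the other way at -0.33, with 321, 321 and 315 CPM against 442, 382 and 379.5 CPM. In TPM, Rpl22l1 stood at 32.3%, 31.0% and 33.9% of the level of Rpl22 in IgE PC and at 17.3%, 23.7% and 18.4% in IgG1 PC, so the ratio of the pair did not overlap between the groups.

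**Figure D3:**
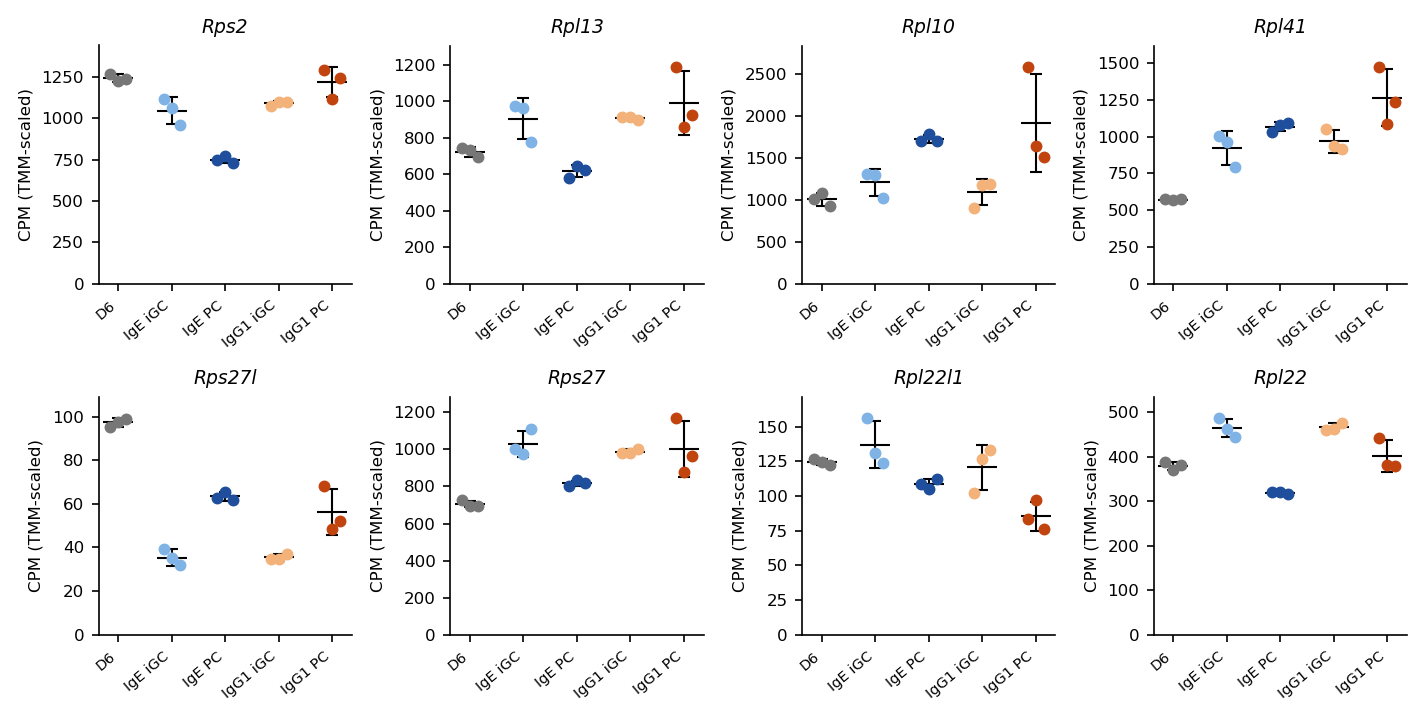
TMM-scaled CPM per library for 8 members in the 5 groups; points are libraries, bars the mean and SD of 3 replicates. Rps2 and Rpl13 are lowest in IgE PC (729 to 769 and 581 to 645 CPM), Rpl10 and Rpl41 are high in plasma cells, Rps27l is highest at D6 (95.3 to 99.1 CPM), and Rpl22l1 and Rpl22 differ in their order of the plasma cell groups.

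By position on the ribosome the falls in IgE PC against IgG1 PC were spread over all groups of members. Rpl5 and Rpl11, which carry the 5S RNA and also bind Mdm2, both fell (-0.23 and -0.58). In the P stalk, where elongation factors dock, Rplp1, Rplp2 and Rpl12 fell (-0.51, -0.34 and -0.38) and Rplp0 did not pass the test at -0.15. Around the peptide exit tunnel 6 of 8 members fell, at the mRNA entry 3 of 3 and at the mRNA exit 4 of 4. Of 18 members linked to Diamond-Blackfan anaemia, 16 fell. These counts stand beside 66 of 82 in the whole family and 30.7% of all genes. Rpsa fell by 0.29 and Rps27a, made as a fusion with ubiquitin, by 0.36 on the log2 scale. Fau, outside the naming rule, was lower too (-0.54).

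In iGC cells no member passed the test between the isotypes. Between IgE iGC and IgG1 iGC edgeR called 0 of the 82 members, with 3.87% of all genes called (1.99% higher, 1.88% lower), and 0 had an unadjusted p under 0.05; DESeq2 called 0 as well. The median of the members was -0.0046, and single members ranged from -0.20 (Rps12) to 0.18 (Rpl22l1). Library values overlapped for all but 6 members, a share below the 27.5% of all genes whose groups did not overlap. Rpl13a, for example, had 2488, 2361 and 2030 CPM in IgE iGC and 2258, 2321 and 2382 CPM in IgG1 iGC. The lowest adjusted p was 0.471.

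The step from iGC to PC was compared within each isotype. In IgE cells 64 members fell and 3 rose, against 33.6% of all genes lower and 30.5% higher (64.1% in all), with a median of -0.33 for the members and -0.08 for all genes. In IgG1 cells 13 fell and 9 rose, against 29% and 30.1% of all genes (59.1% in all), with a median of -0.0019 for the members and 0.01 for all genes. With total-count scaling the IgG1 split was 2 higher and 59 lower, against 20.6% and 43.6% of all genes. The median was then -0.24 for the members and -0.22 for all genes. Without IgG1 PC replicate 1 the IgG1 step called 35 members (4 higher, 31 lower) and the median was -0.10. The difference between the steps was tested as an interaction: 50 of 82 members had a lower value for IgE and 0 a higher one, against 23.1% and 19.8% of all genes (42.9% in all), with a median of -0.31 for the members and -0.06 for all genes. Without IgG1 PC replicate 1 this median was -0.20, with 44 lower and 2 higher. The count fell to 27 without IgE PC replicate 3, 29 without IgE iGC replicate 1, 32 without IgE PC replicate 1 and 33 without IgG1 iGC replicate 2, and to 29 with immunoglobulin genes left out. Of the 9 fibroblast markers tested, 8 were lower in the same interaction (median -2.66) and 8 were higher in the IgG1 step; their part in the result was not tested.

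**Figure D4:**
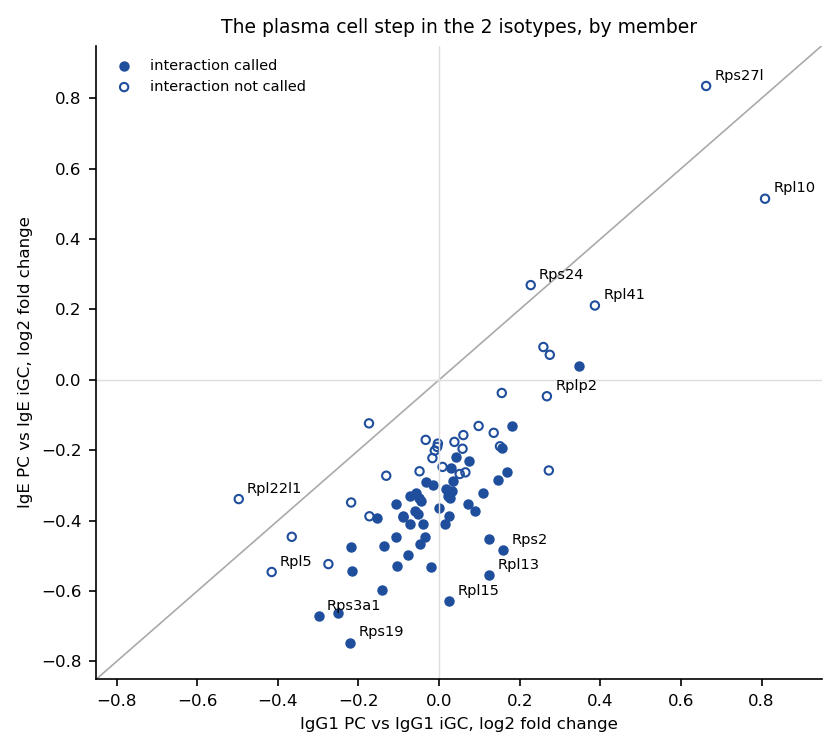
Log2 fold change from iGC to PC in IgG1 cells (horizontal) and in IgE cells (vertical) for each of the 82 members; filled points have a called interaction and the grey line marks equal change. Of the members, 78 lie below the line, and 7 lie above 0 on the vertical axis. Those above 0 on both axes include Rps27l, Rpl10 and Rps24, which were called higher in IgE cells, and Rpl41 and Rps14, which were not.

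The largest interactions were those of Rpl13 (-0.68, SE 0.15; edgeR adjusted p = 0.00203), Rpl15 (-0.66) and Rps2 (-0.64). Rps2 had 1116, 1064 and 957 CPM in IgE iGC and fell to 746, 769 and 729 CPM in IgE PC. In IgG1 cells it had 1076, 1100 and 1097 CPM in iGC and 1293, 1117 and 1243 CPM in PC, a rise of 0.16 (SE 0.06; edgeR adjusted p = 0.0458). The groups did not overlap in either isotype. Without IgG1 PC replicate 1 the IgG1 change of Rps2 was 0.11 and did not pass the test (edgeR adjusted p = 0.132), while its interaction was -0.60. Rpl15 fell in IgE cells by 0.63 on the log2 scale, and its change in IgG1 cells was 0.03. With pseudogene reads added, the change of Rpl15 in IgE cells was -0.55.

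The other large falls in IgE cells at this step were those of Rps19 (-0.75), Rps3a1 (-0.67), Rpl12 (-0.66) and Rpl27a (-0.60). With pseudogene reads added, Rpl12 had -0.42 and Rpl27a -0.44. Rps3a1, a small subunit protein, had 2573, 2406 and 2499 CPM in IgE iGC and 1551, 1563 and 1581 CPM in IgE PC, at an edgeR adjusted p of 1.34e-08, the smallest of the family at this step. It also fell in IgG1 cells, by 0.30 on the log2 scale. In IgG1 cells the largest falls were those of Rpl22l1 (-0.50), Rpl5 (-0.42), Rps12l1 (-0.37), Rps3a1 and Rpl30 (-0.27). Of these, Rpl12 and Rpl5 hold few of the reads of their sequence; with pseudogene reads added, the changes of Rpl12 and Rpl5 in IgG1 cells were -0.0041 and -0.11 and no longer passed the test.

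A small set of members rose from iGC to PC, against the direction of most members in IgE cells. Rpl10 (ENSMUSG00000008682, chromosome X, 74270812 to 74273135), a late-joining large subunit protein next to the peptidyl transferase centre, had 1307, 1295 and 1019 CPM in IgE iGC and 1697, 1776 and 1702 CPM in IgE PC. In IgG1 cells it rose from 907, 1179 and 1183 to 2577, 1639 and 1509 CPM, with replicate 1 far above the other PC libraries. Its changes were 0.51 (SE 0.17; edgeR adjusted p = 0.016) and 0.81 (SE 0.17; edgeR adjusted p = 0.001). With pseudogene reads added, Rpl10 had 0.88 in IgE cells and 0.87 in IgG1 cells, so the larger rise in IgG1 cells depends on how reads were divided. Between the plasma cell groups its change was -0.15, and 0.13 with pseudogene reads added. Rps27l, the paralogue of Rps27, rose in both isotypes, from 39.2, 35.2 and 31.8 to 62.8, 65.7 and 61.7 CPM in IgE cells and from 34.6, 34.5 and 37.1 to 68.1, 48.4 and 52.2 CPM in IgG1 cells. These are changes of 0.83 and 0.66 (SE 0.10 each). Without IgG1 PC replicate 1, Rpl10 had 0.53 in IgG1 cells and still passed the test. Rps24 rose in IgE cells by 0.27 and had 0.23 in IgG1 cells, where it was called with overlapping libraries. Rpl41, a peptide of 25 residues and the shortest product of the family, rose in IgG1 cells by 0.39 and had 0.21 in IgE cells (edgeR adjusted p = 0.0819). Rps14 (0.35) and Rplp2 (0.27) rose in IgG1 cells, and their IgE changes, 0.04 and -0.05, did not pass the test; the interaction passed for Rps14 (-0.31) and not for Rplp2 (-0.31). Without IgG1 PC replicate 1 the IgG1 changes of Rps24 (0.09), Rplp2 (0.15) and the interaction of Rps14 (-0.18) no longer passed the test, and Rps14 had 0.22 in IgG1 cells.

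These rises are relative to the TMM scale. Total-count scaling moved the median of all genes from -0.08 to -0.55 in the IgE step, from 0.01 to -0.22 in the IgG1 step and from -0.05 to -0.30 between the plasma cell groups. With it Rps27l kept a rise (0.37 and 0.42), Rpl10 had 0.05 in IgE cells and 0.56 in IgG1 cells, Rps24 turned to -0.20 in IgE cells, and Rpl22l1 had 0.09 between plasma cell groups. Set against the median of all genes, the members' median in IgE PC against IgG1 PC was -0.24 with TMM and -0.23 with total counts.

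To see how members moved among themselves, libraries were also scaled on the family itself, so that the median member does not change. On that scale 16 members were higher and 10 lower in IgE PC than in IgG1 PC, against 44.1% and 17% of all genes (61.1% in all). The largest rises were those of Rpl22l1 (0.65), Rps27l (0.50), Rps12l1 (0.33), Rps24 (0.29) and Rps29 (0.29), and the largest falls those of Rps2 (-0.39), Rpl13 (-0.35), Rps19 (-0.30), Rps13 (-0.29) and Rpl15 (-0.26). With pseudogene reads added, Rpl13 had -0.19, Rps13 -0.13 and Rpl15 -0.12 on this scale, Rps2 (-0.42) and Rps19 (-0.30) were the largest called falls, and Rpl10 was called higher (0.46). In the IgE step 20 rose and 13 fell (42.4% and 18.7% of all genes, 61.2% in all), led by Rps27l (1.17), Rpl10 (0.84), Rps24 (0.59), Rpl41 (0.54) and Rps29 (0.42). In the IgG1 step 13 rose and 15 fell (28.6% and 24.3%, 52.9% in all), led by Rpl10 (0.78), Rps27l (0.65) and Rpl41 (0.37). Between the iGC groups 0 members were called (2.47% of all genes, 1.39% higher and 1.08% lower), and in the interaction 6 were higher and 4 lower (35.3% and 11.7%, 47% in all).

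Against the day 6 culture, which all 4 sorted groups share as their reference, ribosomal protein mRNAs were higher in iGC cells. In IgE iGC 53 members rose and 5 fell, against 32.8% and 36.3% of all genes (69.1% in all), with a median of 0.27 for the members and -0.04 for all genes. In IgG1 iGC 58 rose and 6 fell (32.4% and 36%, 68.4% in all), with a median of 0.26. In IgG1 PC 55 rose and 6 fell (35.9% and 36%, 71.9% in all), with a median of 0.27; without IgG1 PC replicate 1, 44 rose and 8 fell, with a median of 0.17. In IgE PC 15 rose and 26 fell (36.9% and 39.5%, 76.4% in all), with a median of -0.08. With total-count scaling the medians in IgE PC and IgG1 PC were -0.62 and -0.02, while that of all genes moved to -0.57 and -0.27. The splits were then 2 higher and 76 lower in IgE PC, against 21.1% and 57.6% of all genes. In IgG1 PC they were 14 higher and 26 lower, against 25.3% and 47% of all genes. With immunoglobulin genes left out of the counts, IgE PC had 23 higher and 15 lower, against 40% and 36.2% of all genes. The median was then 0.03 for the members and 0.05 for all genes.

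Among the members with large rises in iGC cells were Rps3a1 (0.80 in IgE iGC and 0.75 in IgG1 iGC), Rpl37a (0.79 and 0.81), Rpl41 (0.69 and 0.76) and Rps26 (0.66 and 0.75). Rps3a1 had 1440.02, 1443 and 1407 CPM at D6, 2573, 2406 and 2499 CPM in IgE iGC and 2367, 2398 and 2449 CPM in IgG1 iGC. D6 lay below every iGC library, with an edgeR adjusted p of 2.39e-09 in IgE iGC (SE 0.05). Rpl41 was the largest rise in both plasma cell groups, from 575, 568 and 575 CPM at D6 to 1033, 1078 and 1094 CPM in IgE PC and 1473, 1087 and 1236 CPM in IgG1 PC (0.90 and 1.14, SE 0.10 each). Rplp0, the base of the P stalk, was higher in all 4 groups (0.73, 0.68, 0.69 and 0.84 in IgE iGC, IgG1 iGC, IgE PC and IgG1 PC).

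Rps27l (ENSMUSG00000036781, chromosome 9, 66946086 to 66949516) showed the largest fall of the family from day 6 in both iGC groups. It had 95.3, 97.7 and 99.1 CPM at D6, 39.2, 35.2 and 31.8 CPM in IgE iGC and 34.6, 34.5 and 37.1 CPM in IgG1 iGC, with log2 fold changes of -1.45 and -1.46 (SE 0.10 each; edgeR adjusted p = 6.7e-09 and 6.71e-09). Its partner Rps27 rose, by 0.54 and 0.49. In TPM, Rps27l stood at 8.81% ± 0.387 of Rps27 at D6, 2.22% ± 0.348 in IgE iGC, 4.91% ± 0.111 in IgE PC, 2.27% ± 0.0731 in IgG1 iGC and 3.57% ± 0.159 in IgG1 PC (SD, n = 3 each). In descending order the groups were D6, IgE PC, IgG1 PC and then the iGC groups, which overlapped. Rpl7l1, the paralogue of Rpl7, fell in all 4 groups against D6, by 0.39, 0.31, 0.52 and 0.49 on the log2 scale. Rpl39l, outside the TPM limit, had 19.9 TPM at D6 and between 1.403 and 5.84 TPM in the group means of the sorted cells.

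Other falls from day 6 rest on members whose reads lie mostly in other rows. Rpl12 had 62.9, 71.0 and 74.2 CPM at D6 and 28.4, 33.7 and 29.8 CPM in IgE PC, a change of -1.18. With pseudogene reads added by name or sequence, Rpl12 had -0.34 in IgE PC, and 0.08, 0.06 and 0.06 in IgE iGC, IgG1 iGC and IgG1 PC, so its direction turned in those 3 comparisons. Rps3a2 (-0.64 in IgG1 iGC and -0.82 in IgE PC) is a pseudogene row.

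The genes that build and regulate ribosomes were compared with day 6 in the same way; of all genes, 36.3% were lower and 32.8% higher in IgE iGC, 36% and 32.4% in IgG1 iGC, 39.5% and 36.9% in IgE PC, and 36% and 35.9% in IgG1 PC. Of 49 ribosome biogenesis factors, 45 were lower and 2 higher in each iGC group and 46 lower and 2 higher in each PC group, with medians of -0.92, -0.79, -1.28 and -1.04 in IgE iGC, IgG1 iGC, IgE PC and IgG1 PC. Utp20 (-2.35), Mrto4 (-1.59) and Ltv1 (-1.37), which process or export pre-ribosomes, had the smallest p-values in IgE iGC. Of 12 genes of RNA polymerase I, the enzyme that makes ribosomal RNA, and of factors listed with it, 8 were lower and 1 higher in IgE iGC, with Polr1a at -1.28. The median was -0.24 there. In IgG1 iGC 5 were lower and 1 higher (median -0.17), nearer the shares of all genes. In IgE PC 10 were lower and in IgG1 PC 9, with 0 higher in each. Of 78 mitochondrial ribosomal protein genes, 40 were lower and 16 higher in IgE iGC (median -0.19). The other TOP genes, for translation factors such as Eif3h (0.81) and Eif4b (0.76), rose more often than they fell in IgE iGC, with 15 of 23 higher and 5 lower (median 0.35). In IgG1 iGC 15 were higher and 4 lower (median 0.34). The plasma cell groups showed no such rise, with 8 higher and 8 lower in IgE PC (median -0.03) and 10 and 8 in IgG1 PC (median 0.04). Day, feeder contact and sorting differ between D6 and the other groups, and their part in these values was not tested.

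**Figure D5:**
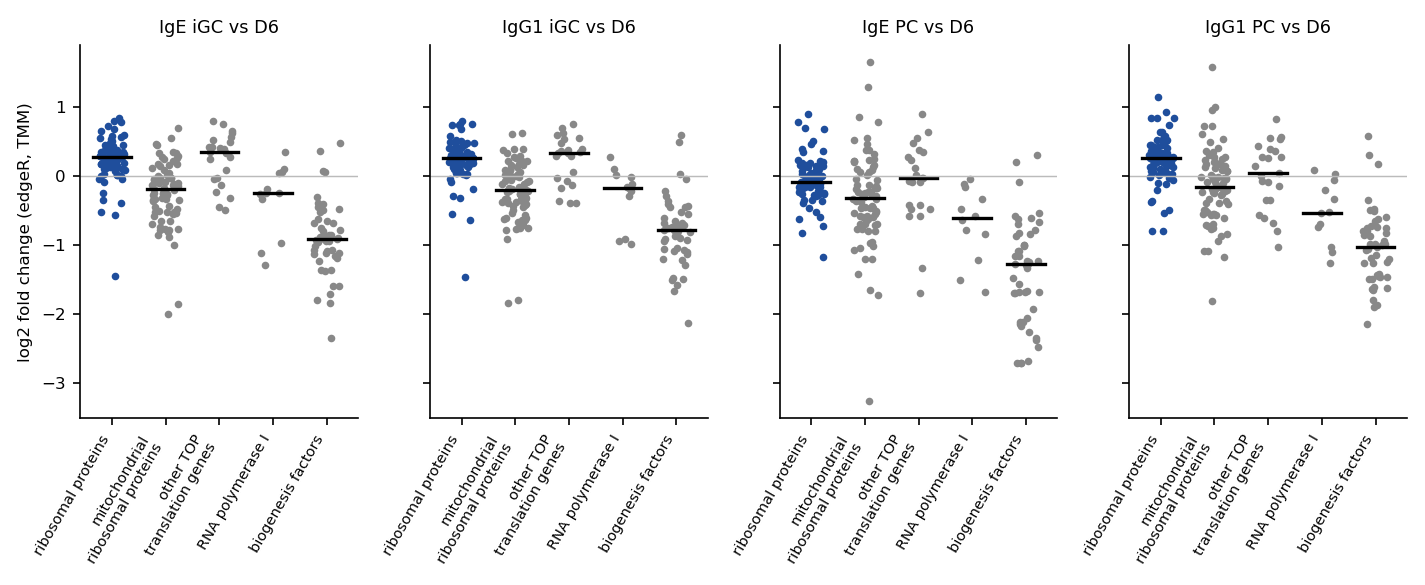
Log2 fold change against D6 (edgeR, TMM) of the 82 cytosolic ribosomal protein genes (blue) and of 4 other lists (grey) in each sorted group; points are genes and bars medians. In the iGC groups the ribosomal protein median is 0.27 and 0.26 and that of the 49 biogenesis factors -0.92 and -0.79.

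Between the plasma cell groups, where 30.7% of all genes were lower and 27.4% higher in IgE PC, the same lists were counted. Of the biogenesis factors 32 were lower and 1 higher in IgE PC than in IgG1 PC (median -0.28), led by Nhp2 (-1.41), Mrto4 (-1.10) and Nop56 (-1.02). Of the mitochondrial ribosomal proteins 37 were lower and 4 higher (median -0.12), with Mrps6 at -1.45. Of the 23 other TOP genes 9 were lower and 6 higher (median -0.03), shares near those of all genes, with Npm1 (-0.66) and Eef1g (-0.48) among the lower. Of a list of 17 genes of mTORC1 signalling and LARP proteins that also holds Tia1 and Tial1, 12 were higher in IgE PC and 0 lower (median 0.25). The higher ones were led by Rps6kb1 (0.86), the S6 kinase, Eif4ebp1 (1.35), a repressor of cap-dependent translation, and Larp4 (0.82). Of the plasma cell markers 6 of 8 were higher in IgE PC and of the B cell markers 4 of 8 were lower; their part in these values was not tested.

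The start sequences and lengths were set beside the changes as a description. The 29 members with a pyrimidine run of at least 7 bases had a median of -0.32 in IgE PC against IgG1 PC, and the 31 others with a promoter had -0.27. In IgE iGC against D6 the medians were 0.23 and 0.28. Rpl13 and Rpl15, both among the largest falls in IgE PC, differ in this respect, Rpl15 having a long run within 10 bases of the start shown and Rpl13 none of 5 bases within that distance. Across the 80 members with an annotated coding sequence, coding length correlated with the change at a Pearson r of -0.04 in IgE PC against IgG1 PC and -0.20 in IgE PC against IgE iGC; the members share libraries and scaling, so these are descriptions only.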

How the data were processed

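The authors deposited 1 table with an RSEM expected count and a TPM value per gene and library, per the file headers. Per the submitters' processing notes the tools were cutadapt 1.9.1, STAR 2.5.2a, RSEM 1.3.0 and DESeq2 1.12.3, with build GRCm38; per the labels' protocols, polyA libraries were read as 76 bp single ends with strand. Expected counts divide reads that fit several genes, and deposited TPM values are shares of each library, so a large immunoglobulin output lowers every other TPM. Each of the 30 per-sample columns matched a library title, leaving 0 unmapped.

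Expected counts were rounded, filtered (filterByExpr, 15692 genes kept), scaled by TMM and fitted with edgeR 4.0.16 (R 4.3.3; glmQLFit robust, glmQLFTest) in 1 model of 5 group means with 10 residual degrees of freedom, with Benjamini-Hochberg adjustment over all genes tested. Contrasts are first minus second, and the interaction is the IgE change minus the IgG1 change. Scaling on the family used the members' median of ratios. Shares were compared by two-sided exact permutation tests. Pseudogene rows were found by name (286 rows) or also by blastn at 90% identity over 50% of the row (935 rows). Gene types came from GENCODE vM21. The code was tested on simulated data.

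The members, gene lists and naming rule were chosen with earlier results of these data known. Named members are the called, non-overlapping members with the largest changes (5 per direction in comparisons of sorted groups, 3 elsewhere) plus paralogues, their partners, the P stalk, Rpl5, Rpl11, Rpsa, Rps27a and the extremes of level; for other lists at most 3 genes with the smallest p. Rps12, the lower end of the iGC range, Rpl39l and Fau were named after their values were seen. Results of some genes that the rule names are not reported here. Alternatives were DESeq2 1.42.0, other scalings, filters and gene sets, leaving out libraries, and a replicate block. Replicate numbers are shared between groups, but same-numbered libraries deviated together at between -0.24 and 0.13 (correlation across genes), so the main fit has no block.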

Additional observations from a re-analysis of the deposited data

Results flagged for a closer look

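IgE and IgG1 cells differed in their iGC to PC step by the test of the difference itself, edgeR's interaction term, in 50 of the 82 ribosomal protein genes, all with a lower value in IgE cells. Of all genes, 23.1% were lower and 19.8% higher in this test (42.9% in all), and their median was -0.06. The largest differences between the steps were those of Rpl13 (-0.68), Rpl15 (-0.66) and Rps2 (-0.64), in log2 units. IgG1 PC replicate 1 moves with them: without this library the median interaction of the members was -0.20 in place of -0.31, and 44 were lower and 2 higher. The count of 50 fell to 27 without IgE PC replicate 3, to 29 without IgE iGC replicate 1 and to 29 with immunoglobulin genes left out. With immunoglobulin genes left out, 20.9% of all genes were lower and 23.2% higher. Of 9 fibroblast markers 8 were lower in the same interaction, and their part in it was not tested.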

How the results depend on the processing

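Scaling moved the plasma cell comparisons most. With total-count scaling the members' median was -0.54 in IgE PC against IgG1 PC, -0.80 in the IgE step, -0.24 in the IgG1 step, -0.54 in the interaction, -0.62 in IgE PC against D6 and -0.0218 (turned from 0.27) in IgG1 PC against D6; calls were 61 in the IgG1 step, 77 in the interaction, 78 in IgE PC against D6 and 40 in IgG1 PC against D6. Of all genes, total-count scaling called 43.6% lower and 20.6% higher in the IgG1 step and 35.7% and 9.83% in the interaction. Against D6 it called 57.6% lower and 21.1% higher in IgE PC and 47% and 25.3% in IgG1 PC. The medians of all genes were -0.22, -0.30, -0.57 and -0.27 in that order. With immunoglobulin genes left out and total-count scaling the medians were -0.49 between plasma cells, -0.49 in the IgE step, -0.50 in the interaction and -0.31 in IgE PC against D6, where 66 members were called. In that comparison 47.6% of all genes were lower and 28.6% higher. With immunoglobulin genes left out alone, the median in IgE PC against D6 turned to 0.0281 and the interaction called 29. With only the groups compared in the fit, the IgG1 step called 9 and IgE PC against D6 62. Of all genes, 25.3% were then lower and 26.7% higher in the IgG1 step. In IgE PC against D6 these shares were 42.6% and 40.6%. Leaving out 1 library gave 14 to 35 calls and medians of -0.0995 to 0.0554 in the IgG1 step, 27 (without IgE PC replicate 3) to 61 calls and medians of -0.36 to -0.20 in the interaction, 6 to 12 calls for the interaction against the family, and medians of 0.17 to 0.35 in IgG1 PC against D6. The shares of all genes called with 1 library left out are not reported here.

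As log2 ratios of shares, the share of counts gave 0.23 (IgE iGC over D6), -0.50 (IgE PC over D6), -0.74 (IgE PC over IgE iGC), 0.24 (IgG1 iGC over D6), 0.75 (IgG1 iGC over IgE PC), 0.0231 (IgG1 PC over D6, turned), -0.21 (IgG1 PC over IgE iGC), 0.53 (IgG1 PC over IgE PC) and -0.22 (IgG1 PC over IgG1 iGC). With immunoglobulin genes out of the total the ratios were -0.14 (IgE PC over D6), -0.30 (IgE PC over IgE iGC), 0.30 (IgG1 iGC over IgE PC) and 0.32 (IgG1 PC over IgE PC), and IgG1 PC turned to 0.18 over D6, 0.0195 over IgE iGC and 0.0201 over IgG1 iGC. Among single members, pseudogene reads turned Rpl12 to 0.0766, 0.0639 and 0.0598 in IgE iGC, IgG1 iGC and IgG1 PC against D6. Among values called in at least 1 of the fits, total-count scaling turned Rpl13a (-0.16), Rps27 (-0.22), Rps27a (-0.23) and Rps4x (-0.18) in the IgG1 step, Rps24 (-0.20) in the IgE step and Rpl7l1 (-0.18) in the interaction. Of 1496 values of single members under settings other than leaving out a library, 1396 kept their side of the threshold with no change of sign of a called value; among them 27 values that were called in neither fit changed sign, 6 of these with total-count scaling. The cause of these differences was not tested.

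With a replicate block the calls were 68 between plasma cells, 0 between iGC groups, 67 in the IgE step, 20 in the IgG1 step, 50 in the interaction, and 58, 64, 43 and 62 against D6 (IgE iGC, IgG1 iGC, IgE PC, IgG1 PC), so the pairing by replicate number moved no count by over 1.5 times. Of all genes, the block fit called 27.4% higher and 30% lower between plasma cells and 1.91% and 1.78% between iGC groups. Shares were 30.3% and 33.1% in the IgE step, 29.5% and 28.8% in the IgG1 step and 19.5% and 22.2% in the interaction. Against D6 they were 32.9% and 36%, 32.3% and 35.7%, 36.7% and 39.3%, and 35.5% and 35.7%, in the same order. Same-numbered libraries correlated at -0.0068 on average.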
